A study of Mus musculus with 9 samples.

Results

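The genes described here belong to the insulin-like growth factor (IGF) system: the ligand Igf1, the receptors Igf1r and Igf2r, the binding proteins Igfbp2, Igfbp3, Igfbp4 and Igfbp5, the adaptors Irs1 and Irs2, and the transcription factor Foxo1. The 10 genes were chosen by name, as the array probes whose RefSeq accession maps to one of the symbols. The choice was made with earlier results of these data known. A probe was matched for 9 of them, out of 16358 genes with a named probe, and Irs2 had no matched probe. The 9 genes were covered by 12 probes, since Igfbp4, Igfbp5 and Foxo1 had a second probe each, and the single Igf1 probe was printed 10 times on every array. Testing required at least 3 arrays with a signal well above background, which 8 of the 9 had, and 6 had it on all 9 arrays.

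The study set food restriction and a fasting and refeeding schedule against free feeding in male wild-type C57BL/6J mice aged 8 to 9 weeks. CR mice received a reduced ration, set from what the RFR mice ate and spread over both days of each cycle. RFR mice alternated a day without food and a day of unrestricted food, and AD mice had food at all times. On day 8 the mice were perfused with cold saline and the amygdala, hypothalamus and prefrontal cortex were taken from coronal sections of 1 mm. RNA of 4 mice was pooled for each regimen and region, and 400 ng of each pool was labelled with Cy3 and hybridised to 1 Agilent whole mouse genome array. Each of the 9 combinations of regimen and region is therefore 1 array without replicate. The labels do not say whether the RFR mice were in a fasted or a refed state when they were killed.

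IGF1 is made by neurons, glia and vessel-associated cells of the brain, and also reaches it from the blood. It activates IGF1R, a receptor tyrosine kinase, which passes the signal through the IRS adaptors to PI3K and AKT, and AKT keeps FOXO1 out of the nucleus. IGF2R binds IGF2 and carries it to the lysosome, and the IGFBPs bind the ligands outside the cell, where they can block or prolong their action. In the liver, fasting lowers Igf1 and raises Igfbp1.

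The promoters of 3 binding proteins are shown, Igfbp2 and Igfbp4 because their levels spanned the widest range over the arrays and Igfbp5 as the neighbour of Igfbp2, from 250 bases before to 50 bases after the annotated start (RefSeq, build GRCm38.p6, 5′ to 3′ on the gene's strand). Igfbp2 lies on chromosome 1 at chr1:72824230-72824529 on the plus strand and is shown for its first of 2 listed starts. Its neighbour Igfbp5, with no protein-coding gene in between, lies at chr1:72874816-72875115 on the minus strand. Igfbp4 lies at chr11:99040994-99041293 on the plus strand. Capitals mark matches, on either strand, to the GC box GGGCGG, the TATA-type box TATAAA and the E-box CACGTG.
Igfbp2: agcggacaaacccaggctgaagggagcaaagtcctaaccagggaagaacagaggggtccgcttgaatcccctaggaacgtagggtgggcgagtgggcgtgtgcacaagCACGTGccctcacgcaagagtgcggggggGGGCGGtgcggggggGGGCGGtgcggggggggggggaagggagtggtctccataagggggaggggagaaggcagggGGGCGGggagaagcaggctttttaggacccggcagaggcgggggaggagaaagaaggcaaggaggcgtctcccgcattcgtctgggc
Igfbp5: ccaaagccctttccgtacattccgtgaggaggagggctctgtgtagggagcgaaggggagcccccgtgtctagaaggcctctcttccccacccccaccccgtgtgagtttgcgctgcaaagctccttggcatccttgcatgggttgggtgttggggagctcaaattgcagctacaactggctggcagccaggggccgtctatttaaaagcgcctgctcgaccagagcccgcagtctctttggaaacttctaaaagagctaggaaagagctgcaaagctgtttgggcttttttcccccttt
Igfbp4: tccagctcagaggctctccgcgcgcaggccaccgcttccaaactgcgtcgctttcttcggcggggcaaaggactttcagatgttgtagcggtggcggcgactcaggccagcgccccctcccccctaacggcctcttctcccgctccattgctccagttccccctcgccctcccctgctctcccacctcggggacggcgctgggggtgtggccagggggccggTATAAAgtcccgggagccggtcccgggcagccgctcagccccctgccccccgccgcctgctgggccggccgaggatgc
The Igfbp2 window held 3 GC boxes and 1 E-box, the Igfbp4 window held 1 TATA-type box, and the Igfbp5 window held none of these letters. Among 32851 mouse promoter windows of the same length, 35.7% held the GC box, 13.6% the TATA-type box and 7.15% the E-box. The FOXO-type motif TGTTTAC, found in 3.65% of the windows, was in none of the 11 windows of the 10 genes.

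Levels are log2 processed signals after subtraction of each array's own 75th percentile, so that 0 is a signal equal to that percentile. Between 59.8% and 69.6% of the 43379 spots were well above background, and the 245 probes printed 10 times gave a pooled SD between spots of 0.070 to 0.115 per array. The tissue labels held for most defining genes. Of 11 measured hypothalamic genes, 10 were higher in the hypothalamus than in the prefrontal cortex, while 7 of 8 cortical genes were lower, and 5 of 7 amygdala genes were higher in the amygdala than in each of the other regions (limma, adjusted p under 0.05). Some were called the other way. They were 1 hypothalamic gene (-1.14), and 1 amygdala gene against the hypothalamus (-0.93) and 1 against the prefrontal cortex (-0.69). Otp, a gene of the hypothalamus, was not well above background on any array. The arrays came from 3 slides, and the diets were spread unevenly over them. The first held the 3 AD arrays and the RFR prefrontal array, the second held the remaining RFR arrays with the CR hypothalamus and CR prefrontal arrays, and the third held the CR amygdala array alone. Diet was compared within 1 slide only in the prefrontal cortex (RFR against AD) and in the hypothalamus (CR against RFR). In the other diet comparisons, slide and diet cannot be told apart. Of 5 measured pituitary genes 4, 5 and 4 were well above background on the RFR amygdala, hypothalamus and prefrontal arrays, against 2, 3 and 1 on the CR arrays and 1, 3 and 1 on the AD arrays. For the 1, 3 and 1 of them measured on both arrays, the median RFR minus AD difference was 0.11, 0.05 and -0.29.

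Across the brain regions, Igfbp2 and Igfbp4 had the widest differences among the members. Both were lower in the hypothalamus than in the prefrontal cortex, by 8.02-fold and 12.3-fold (Igfbp4 was well above background on 2 of the 3 hypothalamus arrays), and the receptor Igf1r was lower by 1.34-fold. Igfbp5 and Foxo1 were higher in the hypothalamus, by 1.38-fold and 1.56-fold. Of the 8 members tested, these 5 passed the test (limma, 3 arrays a region, adjusted p under 0.05), against 48% of all 12622 genes tested, so that the share is near the background. Amygdala against hypothalamus gave 2 members, Igfbp2 and Igfbp4, both higher in the amygdala, with a background of 29.4%. Amygdala against prefrontal cortex gave 3 members, Foxo1 higher and Igf1r and Igfbp4 lower, with a background of 22.3%. In a region comparison the 3 diet pools stand as replicates, and p-values describe the spread between pools. The median difference of the 8 members was -0.14, -0.06 and -0.30 for these comparisons, beside 0.06, -0.06 and 0.00 over all genes tested. In tissue RNA, fewer cells of a type and less RNA per cell cannot be told apart.

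Across the diets, no member passed the test. The count was 0 of 8 for CR against AD, with a background of 0% of all genes. It was also 0 of 8 when RFR was set against AD, and when CR was set against RFR, with a background of 0.0158% each. At an unadjusted p under 0.05, limma gave 1 member (Igfbp4) for CR against AD, with 2084 genes in all, and 2 members (Igfbp4 and Foxo1) for RFR against AD, with 777 genes. It gave 1 member (Igfbp3) for CR against RFR, with 1866 genes, but Igfbp3 was well above background on no RFR array, so that its fitted difference is not a measured one. The receptors Igf1r and Igf2r and Igfbp5 had fitted diet differences between -0.12 and 0.15 (limma, adjusted p of at least 0.524). The 3 regions of a diet came from the same mice, so p-values over regions are too small. Within a region a diet is 1 array, and those differences are given as values without a test.

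**Figure D1:**
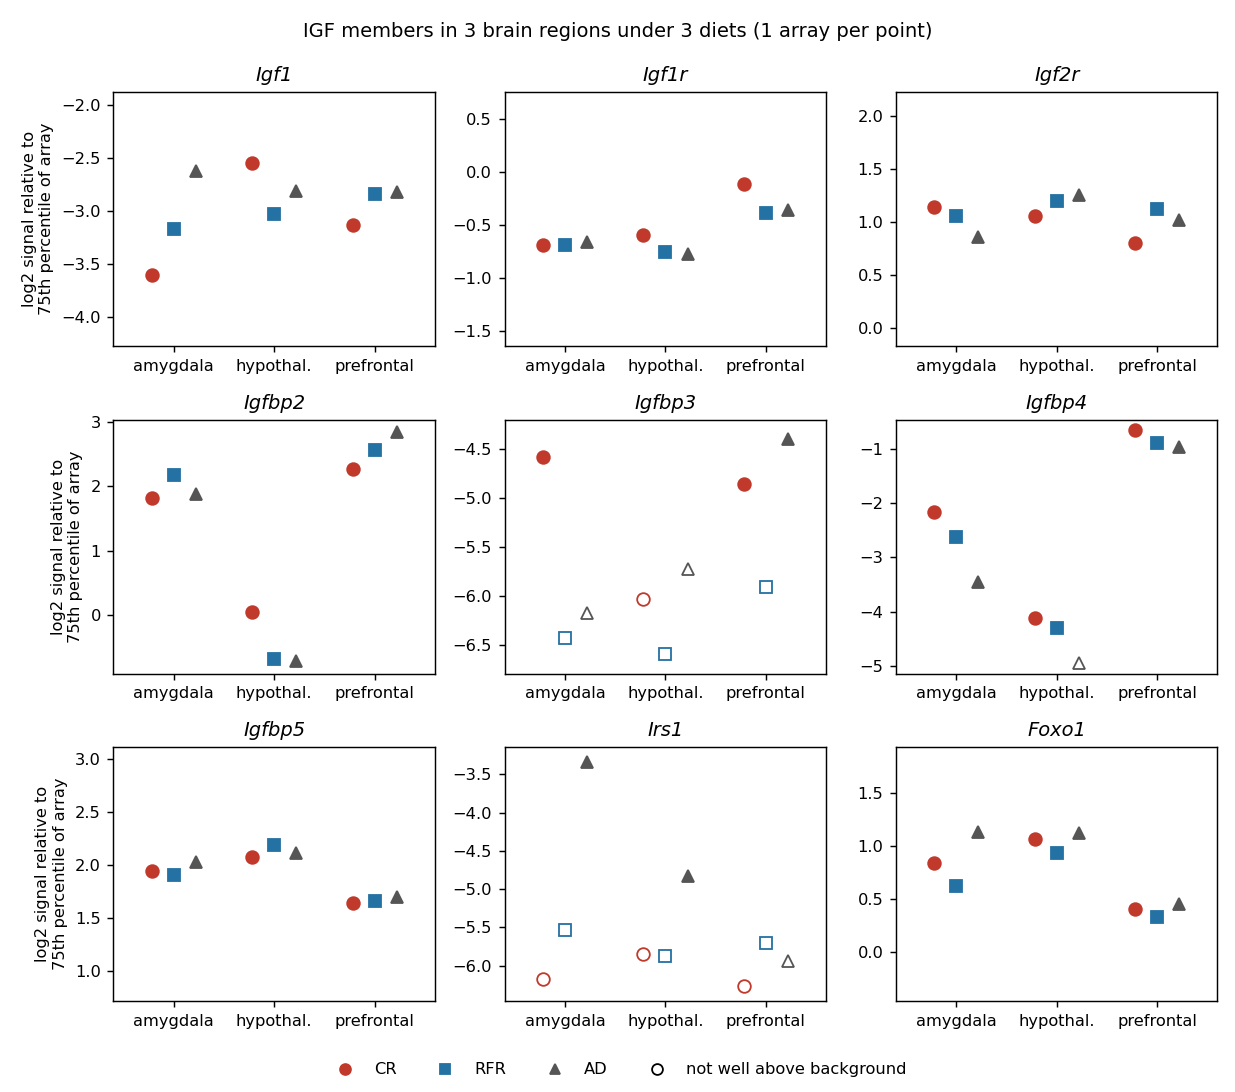
Level of each member on the 9 arrays, as log2 signal minus that array's 75th percentile (vertical axis, each panel with its own scale of levels), by region (horizontal axis) and diet (CR circles, RFR squares, AD triangles), with open symbols where the probe was not well above background. Igfbp2 and Igfbp4 separate the hypothalamus from the other regions, whereas Igf1, Igf1r, Igf2r, Igfbp5 and Foxo1 span 0.46 to 1.06 over all 9 arrays.

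Igf1, the ligand, did not differ between regions beyond the spread of the pools, and its widest diet difference was in the amygdala. Its level there was -3.61 under CR, -3.16 under RFR and -2.62 under AD. In the hypothalamus it was -2.54 under CR, -3.03 under RFR and -2.81 under AD. In the prefrontal cortex it was -3.13 under CR, -2.83 under RFR and -2.82 under AD. The CR array was thus the lowest in the amygdala and the prefrontal cortex and the highest in the hypothalamus. The hypothalamus minus prefrontal cortex difference was 0.14 ± 0.23 (SE, limma, adjusted p = 0.653), and the amygdala differed by -0.34 ± 0.23 from the hypothalamus (adjusted p = 0.316) and by -0.20 ± 0.23 from the prefrontal cortex (adjusted p = 0.587).

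Because the Igf1 probe was printed 10 times, each array gives its own reading error. The SD between its spots was 0.047 to 0.110, and after removal of spots marked as outliers 7 spots were used on the AD amygdala array, 9 on the CR and RFR prefrontal arrays and 10 on each of the others. In the amygdala the spots lay between -3.70 and -3.52 under CR, between -3.25 and -3.09 under RFR and between -2.75 and -2.46 under AD. The 3 sets of spots did not overlap after subtraction of each array's 75th percentile. Before it, the median processed signal was 91.8 under CR, 90.1 under RFR and 138 under AD. The 75th percentiles were 1124, 817 and 852. The separation of CR from RFR thus rests on this scaling, whose error the spread between spots does not cover. Spots of 1 array share 1 pool of RNA and 1 hybridisation, and are no replicates of a diet.

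**Figure D2:**
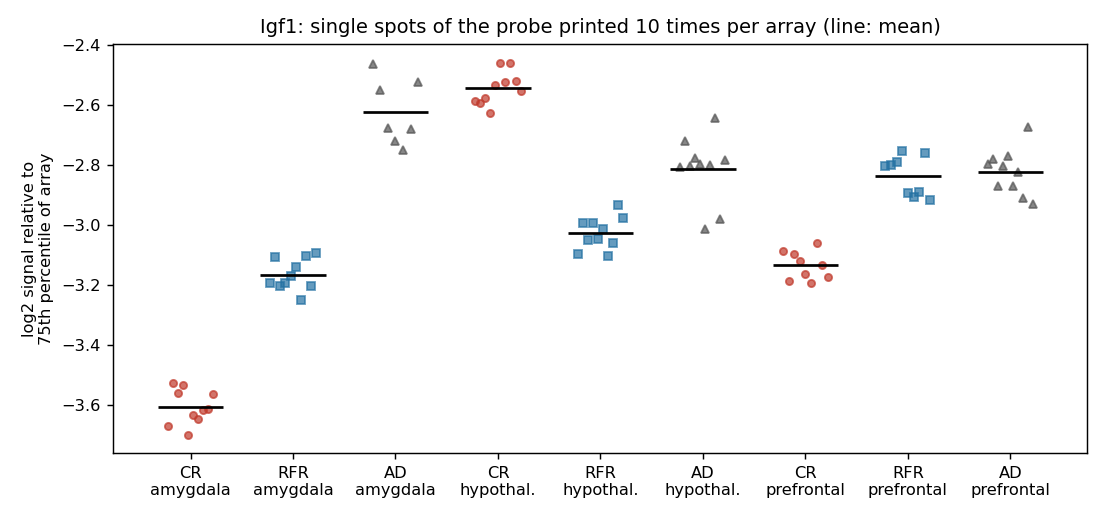
Single spots of the Igf1 probe (points) with their mean (line) on each of the 9 arrays, as log2 signal minus that array's 75th percentile, with CR, RFR and AD from left to right in each region. The amygdala arrays stand apart from each other, with means of -3.61 under CR, -3.16 under RFR and -2.62 under AD, while in the prefrontal cortex the RFR and AD spots overlap.

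The CR minus AD difference of Igf1 in the amygdala was -0.98, a 1.98-fold lower signal. The RFR minus AD difference there was -0.54, or 1.46-fold lower. The authors' deposited ratios to AD, taken to log2, were -0.86 for CR and -0.47 for RFR in the amygdala. Over the 3 regions, limma gave -0.34 ± 0.23 for CR minus AD (adjusted p = 0.487) and -0.26 ± 0.23 for RFR minus AD (adjusted p = 0.935). With slide as a term of the model these became 0.52 and 0.12, so that the direction turned. The 7 amygdala genes ran beside Igf1 in these arrays, with 5 of 7 lower under CR than under AD in the amygdala, a median difference of -0.29 and a summed linear signal of 32.7 under CR, 35.5 under RFR and 42.1 under AD (in units of the array's 75th percentile). All 7 were well above background on each of the 3 arrays. Their part in the Igf1 difference was not tested. In the hypothalamus, on 1 slide, Igf1 was 1.40-fold higher under CR than under RFR, a difference of 0.48.

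Igf1r, the receptor for Igf1, was set apart by region more than by diet. Its level in the amygdala was -0.68 under CR, -0.68 under RFR and -0.66 under AD. In the hypothalamus it was -0.59 under CR, -0.75 under RFR and -0.77 under AD. Prefrontal levels were -0.11 under CR, -0.39 under RFR and -0.35 under AD. All 3 prefrontal arrays were above all 6 arrays of the other regions, and the amygdala and hypothalamus arrays overlapped. The hypothalamus minus prefrontal cortex difference was -0.42 ± 0.10 (SE, limma, adjusted p = 0.0117) and the amygdala minus prefrontal cortex difference was -0.39 ± 0.10 (adjusted p = 0.0311), each in 3 of 3 pools. Within 1 slide, the hypothalamus differed from the prefrontal cortex by -0.48 under CR and by -0.42 under AD. Without the CR pool the adjusted p was 0.0634 and 0.202, and without the RFR pool 0.0897 and 0.178. The amygdala comparison was also not called without the AD pool (adjusted p = 0.0729), with slide as a term (adjusted p = 0.132) or with no filter on dim genes (adjusted p = 0.0584). The CR prefrontal array, the highest for Igf1r, also had the highest level of the 10 oligodendrocyte genes in that region, with a summed linear signal of 105 under CR, 57.4 under RFR and 79.1 under AD, and all 10 were well above background on each array. Between regions the list ran the other way. For hypothalamus against prefrontal cortex 10 of 10 were higher (limma, adjusted p under 0.05), with a median difference of 1.25. In the amygdala the summed signal of the list was 147 under CR, 102 under RFR and 123 under AD, while Igf1r stayed between -0.68 and -0.66. The part of oligodendrocyte genes in the Igf1r level was not tested.

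Igf2r, which clears IGF2 rather than signalling through a kinase, had levels of 1.14 under CR, 1.05 under RFR and 0.85 under AD in the amygdala. The hypothalamus had 1.05 under CR, 1.19 under RFR and 1.26 under AD. The prefrontal cortex had 0.80 under CR, 1.12 under RFR and 1.02 under AD. The 3 regions overlapped, and no region comparison passed the test, with limma differences of 0.19 ± 0.13 for hypothalamus minus prefrontal cortex (adjusted p = 0.264), -0.15 ± 0.13 for amygdala minus hypothalamus (adjusted p = 0.427) and 0.04 ± 0.13 for amygdala minus prefrontal cortex (adjusted p = 0.858). In the amygdala the AD array was the lowest, and in the hypothalamus it was the highest.

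Igfbp2, a binding protein of the cerebrospinal fluid that meningeal and choroid plexus cells make, showed both a region difference and opposite diet differences in 2 regions. In the amygdala its level was 1.82 under CR, 2.17 under RFR and 1.88 under AD. In the hypothalamus it was 0.05 under CR, -0.69 under RFR and -0.71 under AD. The prefrontal level was 2.27 under CR, 2.56 under RFR and 2.84 under AD. The regions did not overlap, with the prefrontal cortex highest and the hypothalamus lowest, and the gap between the amygdala and the prefrontal cortex was small. Limma gave a hypothalamus minus prefrontal cortex difference of -3.00 ± 0.26 (SE, adjusted p = 0.000108) and an amygdala minus hypothalamus difference of 2.41 ± 0.26 (adjusted p = 0.00078), each in 3 of 3 pools. The amygdala minus prefrontal cortex difference of -0.60 ± 0.26 did not pass (adjusted p = 0.153).

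Under CR the region difference of Igfbp2 was smaller. The hypothalamus minus prefrontal cortex difference was -2.21 under CR and -3.25 under RFR, against -3.55 under AD, and the CR and the AD arrays each shared 1 slide. That the diets differ in it was not tested. In the hypothalamus, Igfbp2 was 1.70-fold higher under CR than under AD, a difference of 0.76, and 1.67-fold higher than under RFR, a difference of 0.74 between arrays of 1 slide. In the prefrontal cortex it was 1.49-fold lower under CR than under AD, a difference of -0.57, and in the amygdala the difference was -0.06. The authors' deposited ratios to AD, taken to log2, were 0.88, -0.48 and 0.07 for CR in the hypothalamus, prefrontal cortex and amygdala. Over the 3 regions CR minus AD was 0.05 ± 0.26 (limma, adjusted p = 0.947), with opposite signs in the hypothalamus and the prefrontal cortex, and was -0.31 when the hypothalamus was left out.

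Genes of the meninges moved beside Igfbp2. The list held 12 fibroblast and meningeal genes such as the collagen chains Col1a1 and Col3a1 and the proteoglycan Dcn, and all 12 were well above background on all 9 arrays. In the hypothalamus 12 of 12 were higher under CR than under AD, with a median difference of 0.86, and 12 of 12 were higher than under RFR, with a median of 0.81. Of the same genes 12 of 12 were lower under CR than under AD in the prefrontal cortex, with a median of -0.61, and in the amygdala 8 of 12 were lower, with a median of -0.21. Their summed linear signal in the hypothalamus was 89.9 under CR, 50.5 under RFR and 38.8 under AD, and in the prefrontal cortex it was 103 under CR, 135 under RFR and 139 under AD. After subtraction of each region's mean, Igfbp2 and the median of the list had a Pearson r of 0.92 over the 9 arrays, which share diet pools and slides, while the other 13 marker lists had r between -0.60 and 0.54. The part of meningeal tissue in the Igfbp2 differences was not tested. Between regions the list ran only partly with Igfbp2. Its median difference was -1.24 for hypothalamus minus prefrontal cortex and 1.51 for amygdala minus hypothalamus, as for Igfbp2, but 0.61 for amygdala minus prefrontal cortex, where Igfbp2 was at -0.60.

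**Figure D3:**
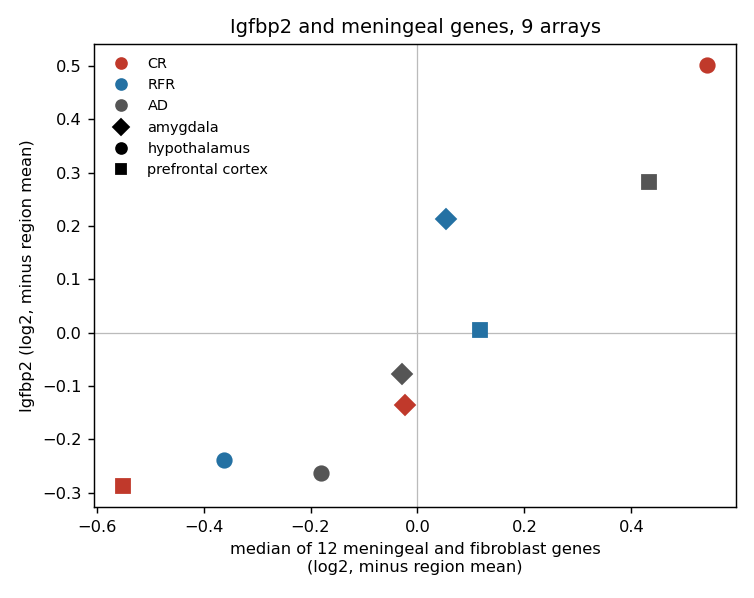
Igfbp2 (vertical axis) against the median of 12 meningeal and fibroblast genes (horizontal axis), both as log2 level minus the mean of the region, with 1 point per array, colour for diet and shape for region. The CR hypothalamus array is highest on both axes (0.50 for Igfbp2 and 0.54 for the list) and the CR prefrontal array is lowest on both (-0.29 and -0.55).

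Igfbp4, a binding protein that the protease pregnancy-associated plasma protein A (Pappa) cuts, had the widest region difference of the members. Its level in the amygdala was -2.17 under CR, -2.63 under RFR and -3.46 under AD. In the hypothalamus it was -4.11 under CR, -4.31 under RFR and -4.94 under AD, where the AD array was not well above background and the other 2 were. In the prefrontal cortex it was -0.66 under CR, -0.89 under RFR and -0.96 under AD. The regions did not overlap, and the prefrontal cortex was the highest. Limma gave -3.62 ± 0.18 (SE) for hypothalamus minus prefrontal cortex (adjusted p = 1.15e-05), 1.70 ± 0.18 for amygdala minus hypothalamus (adjusted p = 0.000836) and -1.92 ± 0.18 for amygdala minus prefrontal cortex (adjusted p = 0.000612), each in 3 of 3 pools. Within 1 slide, the hypothalamus minus prefrontal cortex difference under CR was -3.45. With normexp background correction the hypothalamus differed by -2.36 from the prefrontal cortex (adjusted p = 3.89e-07) and the amygdala by 0.84 from the hypothalamus (adjusted p = 0.00114), smaller by over 1.5-fold each. The second Igfbp4 probe kept this order, with -3.37 under CR, -3.63 under RFR and -3.97 under AD in the amygdala, -1.64 under CR, -1.97 under RFR and -1.77 under AD in the prefrontal cortex, and no hypothalamus array was well above background for it.

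In each region the order of Igfbp4 by diet was CR, then RFR, then AD with the brighter of its probes. In the amygdala it was 2.44-fold higher under CR than under AD, a difference of 1.29, and 1.77-fold higher under RFR, a difference of 0.83. In the prefrontal cortex the CR minus AD difference was 0.31 and the RFR minus AD difference, within 1 slide, was 0.07. In the hypothalamus the AD array was not well above background. Against its signal of -4.94, CR was 1.78-fold and RFR 1.55-fold higher, and neither is a measured fold. Over the 3 regions CR minus AD was 0.81 ± 0.18 (limma, adjusted p = 0.206) and RFR minus AD was 0.51 ± 0.18 (limma, adjusted p = 0.737), higher in 3 of 3 regions each. Neither passed the adjusted threshold. The size depended on slide, background correction and probe. With slide as a term CR minus AD was 0.19. In the amygdala CR minus AD was 0.64 with normexp correction, and for the second probe CR had -3.37 against -3.97 under AD. In the prefrontal cortex the second probe did not keep RFR between CR and AD, with RFR lowest. In the hypothalamus, where it was well above background on no array, its AD signal was the highest, with -5.57 under CR, -5.49 under RFR and -4.85 under AD.

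Igfbp5, the binding protein next to Igfbp2 on chromosome 1, differed little between diets, with differences between 2 arrays of a region from -0.13 to 0.07. Its level in the amygdala was 1.94 under CR, 1.90 under RFR and 2.03 under AD. In the hypothalamus it was 2.08 under CR, 2.19 under RFR and 2.11 under AD. Prefrontal levels were 1.64 under CR, 1.66 under RFR and 1.69 under AD. The regions did not overlap, with the hypothalamus highest and the prefrontal cortex lowest, which is the reverse of the order of Igfbp2. The hypothalamus minus prefrontal cortex difference was 0.46 ± 0.09 (SE, limma, adjusted p = 0.00551, 3 of 3 pools), and it lost the call without the RFR pool (adjusted p = 0.0788). The amygdala was higher than the prefrontal cortex by 0.29 ± 0.09 without passing (adjusted p = 0.0634, and 0.0343 to 0.0446 with normexp, quantile normalization or trended variances), and its difference of -0.17 ± 0.09 from the hypothalamus did not pass either (adjusted p = 0.212). The second Igfbp5 probe was well above background on 6 of 9 arrays and kept the order of the regions, with means of -4.65 in the amygdala, -4.49 in the hypothalamus and -4.80 in the prefrontal cortex. Its diet levels spread more, with -4.44 under CR, -4.61 under RFR and -4.88 under AD in the amygdala. With both probes averaged, the hypothalamus minus prefrontal cortex difference was 0.38 and was not called (adjusted p = 0.101).

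Igfbp3, the main carrier of IGF1 in blood, was near the limit of the array. It was well above background on 3 arrays, with -4.58 in the CR amygdala, -4.86 in the CR prefrontal cortex and -4.40 in the AD prefrontal cortex. The other 6 arrays lay between -6.59 and -5.72 and give no measured level. For these a limit was used. It is the higher of the dim probe's own signal and the lowest signal of any probe well above background on that array. Against this limit CR was 1.96-fold higher than AD in the amygdala. In the prefrontal cortex RFR was 2.51-fold lower than AD, within 1 slide. Probes with a signal above the limit can still fail to be well above background, so these folds are no strict lower bounds. Each fold rests on 2 arrays and has no test.

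Irs1, the adaptor that couples the IGF1 and insulin receptors to PI3K, was well above background on 2 AD arrays alone, with -3.35 in the amygdala and -4.83 in the hypothalamus. The other 7 arrays lay between -6.26 and -5.53. Against the limit described for Igfbp3, CR was 6.82-fold and RFR 3.42-fold lower than AD in the amygdala. In the hypothalamus these values were 1.18-fold and 1.04-fold. They are no strict lower bounds. On the CR amygdala array the lowest signal well above background was -6.11, while Insr at -5.79 was not well above background there. For Irs1 in the prefrontal cortex no array was well above background. With 2 arrays above background, Irs1 did not enter the test, and both arrays lay on the first slide. Its single probe gives no second reading on the same arrays.

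Foxo1, the transcription factor that AKT inactivates, was higher in both subcortical regions than in the prefrontal cortex. Its level in the amygdala was 0.84 under CR, 0.63 under RFR and 1.14 under AD. In the hypothalamus it was 1.07 under CR, 0.94 under RFR and 1.12 under AD. Prefrontal levels were 0.41 under CR, 0.33 under RFR and 0.46 under AD. The prefrontal arrays lay below all others, and in every region AD was the highest and RFR the lowest. The hypothalamus minus prefrontal cortex difference was 0.64 ± 0.11 (SE, limma, adjusted p = 0.00268) and the amygdala minus prefrontal cortex difference was 0.47 ± 0.11 (adjusted p = 0.0222), each in 3 of 3 pools. Within 1 slide, the hypothalamus minus prefrontal cortex difference was 0.66 under CR and 0.66 under AD. The call for the amygdala was lost when any pool was left out (differences of 0.37 to 0.56, adjusted p = 0.0842 to 0.118), with slide as a term (0.57, adjusted p = 0.0813) and with normexp correction (0.41, adjusted p = 0.0503).

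The diet difference of Foxo1 was small. Over the 3 regions RFR minus AD was -0.27 ± 0.11 (limma, adjusted p = 0.776), lower in 3 of 3 regions, and CR minus AD was -0.14 ± 0.11 (adjusted p = 0.553). The widest difference was RFR minus AD in the amygdala, at -0.51. The second Foxo1 probe did not show it, with 0.36 under CR, 0.39 under RFR and 0.40 under AD in the amygdala. On the RFR amygdala array 8 of 8 measured choroid plexus genes were higher than on the AD array, with a median difference of 1.08 and a summed linear signal of the list of 4.81 against 3.22, and their part in the Foxo1 level was not tested. Across the regions the second probe kept the order, with means of 0.38 in the amygdala, 0.57 in the hypothalamus and -0.03 in the prefrontal cortex.

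Counted within regions, few members differed by 1.5-fold or more between diets. For CR against AD in the amygdala 2 of 7 members measured on both arrays did (Igf1 and Igfbp4), against 16.4% of all genes. For RFR against AD in the amygdala 1 of 7 did (Igfbp4), against 8.82%. In the hypothalamus 1 of 6 did for CR against AD (Igfbp2), against 9.28%, and 1 of 7 for CR against RFR (Igfbp2), against 3.96%. No member reached 1.5-fold for CR against RFR in the amygdala (background 12.1%), for RFR against AD in the hypothalamus (3.06%) or in any prefrontal comparison (7.61% for CR against AD, 5.21% for CR against RFR and 4.21% for RFR against AD). Igfbp4 in the amygdala under CR was the single member past 2-fold, which 3.26% of genes reached there.

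**Figure D4:**
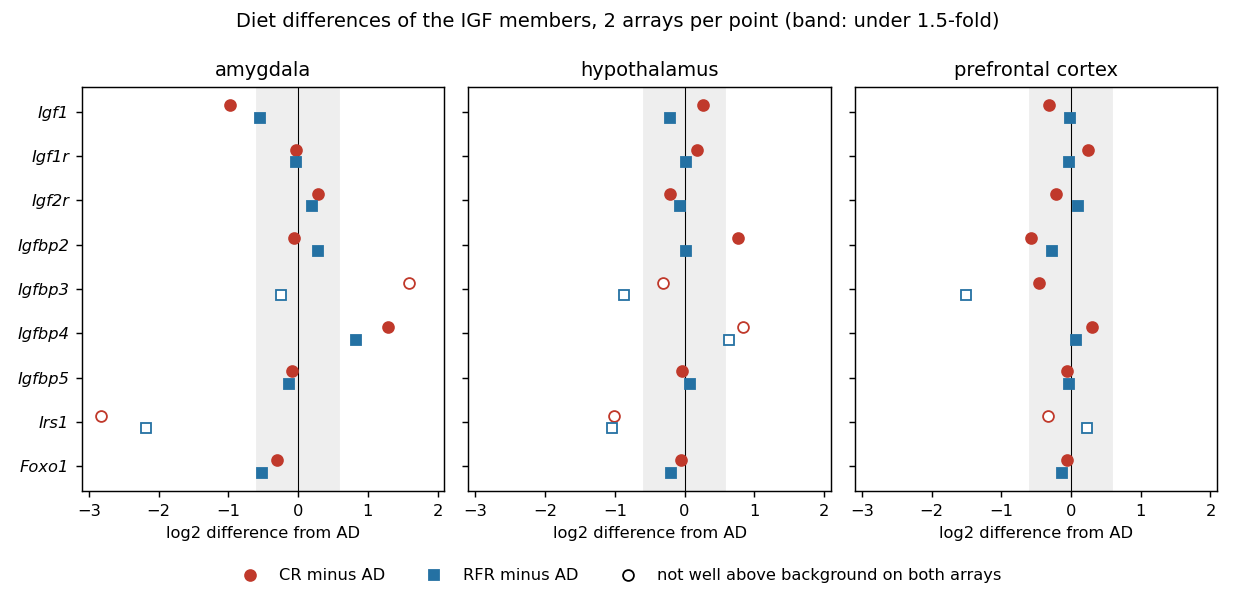
Difference from the AD array of the same region in log2 units (horizontal axis) for each member (vertical axis) and region (panel), with CR as circles and RFR as squares, 2 arrays per point and the range under 1.5-fold shaded. Open symbols mark members not well above background on both arrays, drawn at the plain difference of the 2 signals, which is no measured fold. In the amygdala Igf1 (-0.98) and Igfbp4 (1.29) under CR lie on opposite sides of 0.

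Genes that followed the members most closely over the 9 arrays were sought among 11228 genes well above background on all of them, for Igf1 and Igfbp2, the 2 members that were measured on all 9 arrays and span at least 1 on the log2 scale. Igf1 ran closest to Snrpg, a protein of the splicing machinery (Pearson r = 0.974), Mrpl33, a protein of the mitochondrial ribosome (0.924), and Ostf1 (0.923), and 7 genes had r over 0.9. Igfbp2 ran closest to Sla (0.990), the neuronal calmodulin-binding protein Nrgn (0.984) and Rspo2, a Wnt pathway activator (0.984), and 567 genes had r over 0.9. Over the 9 arrays the Igfbp2 pattern is mainly that of the regions, and the arrays share diet pools and slides.

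Around the members, the other genes of the IGF and insulin system also differed mainly between regions. The list held 25 genes, of which 23 had a probe and 17 were measured. For hypothalamus against prefrontal cortex 6 were higher and 5 lower, against 48% of all genes called in either direction, with a median difference of 0.37 beside 0.06 over all genes. Igfbp6, which prefers IGF2, was lower, with a difference of -5.85 ± 0.33 (SE, limma, adjusted p = 1.73e-05) and levels of -2.29 under CR, -3.53 under RFR and -3.84 under AD in the hypothalamus and of 2.79 under CR, 2.65 under RFR and 2.45 under AD in the prefrontal cortex. Grb10, an inhibitor of the IGF1 and insulin receptors, was higher by 2.34 ± 0.11 (adjusted p = 8.08e-06). Pappa, the Igfbp4 protease, and Igfbpl1 were not well above background on any prefrontal array. Against the limit described for Igfbp3, the hypothalamus was 4.54-fold and 3.77-fold higher with the processing used here, or 2.18 and 1.92 in log2. Over the alternatives the fitted difference was as low as 1.18 for Pappa and 0.96 for Igfbpl1, below these values. Both genes entered the test through the other regions alone. The fit, which takes their signals below background as values, gave adjusted p = 6.09e-06 and 6.77e-06 (limma). Pappa RNA was well above background on the 3 hypothalamus and 3 amygdala arrays, and on no array of the prefrontal cortex, where Igfbp4 RNA was highest. Protein and cutting of Igfbp4 were not measured.

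For amygdala against hypothalamus 2 genes of this list were higher, Igfbp6 by 3.82 ± 0.33 (limma, adjusted p = 0.000329) and the ligand Igf2 by 1.67 ± 0.28 (adjusted p = 0.00496), and 5 were lower, Igfbpl1 by a difference that changed sign when all its probes were averaged (background 29.4%). For amygdala against prefrontal cortex 7 were higher and 2 lower (background 22.3%). Among the 7, Pappa, Igfbpl1 and Igfbp1 were well above background on no prefrontal array, so that these calls rest on signals that are no measured levels. Igfbp1 entered the test through the 3 amygdala arrays alone. Over the alternatives its fitted difference ranged from 0.18 to 1.88, with an adjusted p up to 0.304 (limma). Across diets 0 of 17 passed in any of the 3 comparisons. Within regions, Igf2 and Igfbp6 moved in some of the arrays where Igfbp2 did. Igf2, another product of meningeal cells, was at 1.59 under CR, 0.81 under RFR and 1.24 under AD in the hypothalamus. In the prefrontal cortex it was at 1.74 under CR, 2.21 under RFR and 2.53 under AD. Its amygdala levels of 3.02 under CR, 3.03 under RFR and 2.59 under AD did not follow Igfbp2, whose CR minus AD difference there was -0.06. Igfbp6 was 2.93-fold higher under CR than under AD in the hypothalamus, a difference of 1.55, but in the prefrontal cortex CR was not lower. Irs4, an adaptor known from the hypothalamus, was 2.18-fold lower under CR than under AD there and 1.73-fold lower under RFR. It was also 1.74-fold lower under CR than under AD in the prefrontal cortex, and its difference of 0.37 between hypothalamus and prefrontal cortex did not pass the test.

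In the arm from PI3K over AKT to the TOR kinase, the genes that passed between hypothalamus and prefrontal cortex were all lower in the hypothalamus. All 24 genes of that list were measured, and 0 were higher, 11 lower and 13 did not pass, a share near the 48% of all genes called, with a median difference of -0.47 beside 0.06 over all genes. Akt2, a kinase of insulin signalling, was lower, with a difference of -1.64 ± 0.17 (SE, limma, adjusted p = 0.000302). Eif4ebp1, a repressor of translation that TOR inactivates, differed by -1.33 ± 0.14 (adjusted p = 0.000292), and Pik3r2, a regulatory subunit of PI3K, by -1.30 ± 0.09 (adjusted p = 4.02e-05). For amygdala against prefrontal cortex 0 were higher and 4 lower (background 22.3%), and for amygdala against hypothalamus 3 were higher and 0 lower (background 29.4%), both shares below the background. Genes of neurons ran the same way between these regions, with 1 of 10 higher and 5 of 10 lower in the hypothalamus than in the prefrontal cortex, a median of -0.37, and a summed linear signal of 157 to 167 against 263 to 296. Genes of microglia, vessels, meninges and blood did so too, with 5 of 8, 5 of 12, 7 of 12 and 5 of 5 lower. Their medians were -0.67, -0.34, -1.24 and -1.94, and 1 of the meningeal genes was higher. Those of oligodendrocytes, choroid plexus, ependyma and astrocytes went the other way. Of these, 10 of 10, 8 of 9, 4 of 4 and 3 of 9 were higher, and 1 astrocyte gene was lower. The part of any of these lists in the difference of the PI3K list was not tested. Across diets 0 of 24 passed. Within regions Rptor, a subunit of the TOR complex, was 3.09-fold higher under CR than under AD in the amygdala, between arrays of different slides. In that comparison 16.4% of all genes differed by 1.5-fold or more. Rptor was lower under CR than under AD in the hypothalamus (-2.36 against -2.22) and in the prefrontal cortex (-2.50 against -2.14).

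Of 20 other FOXO factors and genes known as FOXO targets, 18 were measured. For hypothalamus against prefrontal cortex 3 were higher and 5 lower, near the background of 48%, with a median of -0.21. The cell cycle inhibitor Cdkn1a differed by -1.70 ± 0.18 (SE, limma, adjusted p = 0.000311), the transcription factor Klf9 by -1.70 ± 0.20 (adjusted p = 0.000462) and the cyclin Ccng2 by -1.26 ± 0.21 (adjusted p = 0.00241). Pik3ip1, an inhibitor of PI3K, was higher by 0.79 ± 0.15 (adjusted p = 0.00415). Foxo1 itself was higher in the same comparison. For amygdala against hypothalamus 3 were higher and 2 lower (background 29.4%), and for amygdala against prefrontal cortex 1 was higher and 5 lower (background 22.3%). Across diets 0 of 18 passed, and within regions Klf9 was 1.82-fold lower under CR and 1.59-fold lower under RFR than under AD in the hypothalamus.

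**Figure D5:**
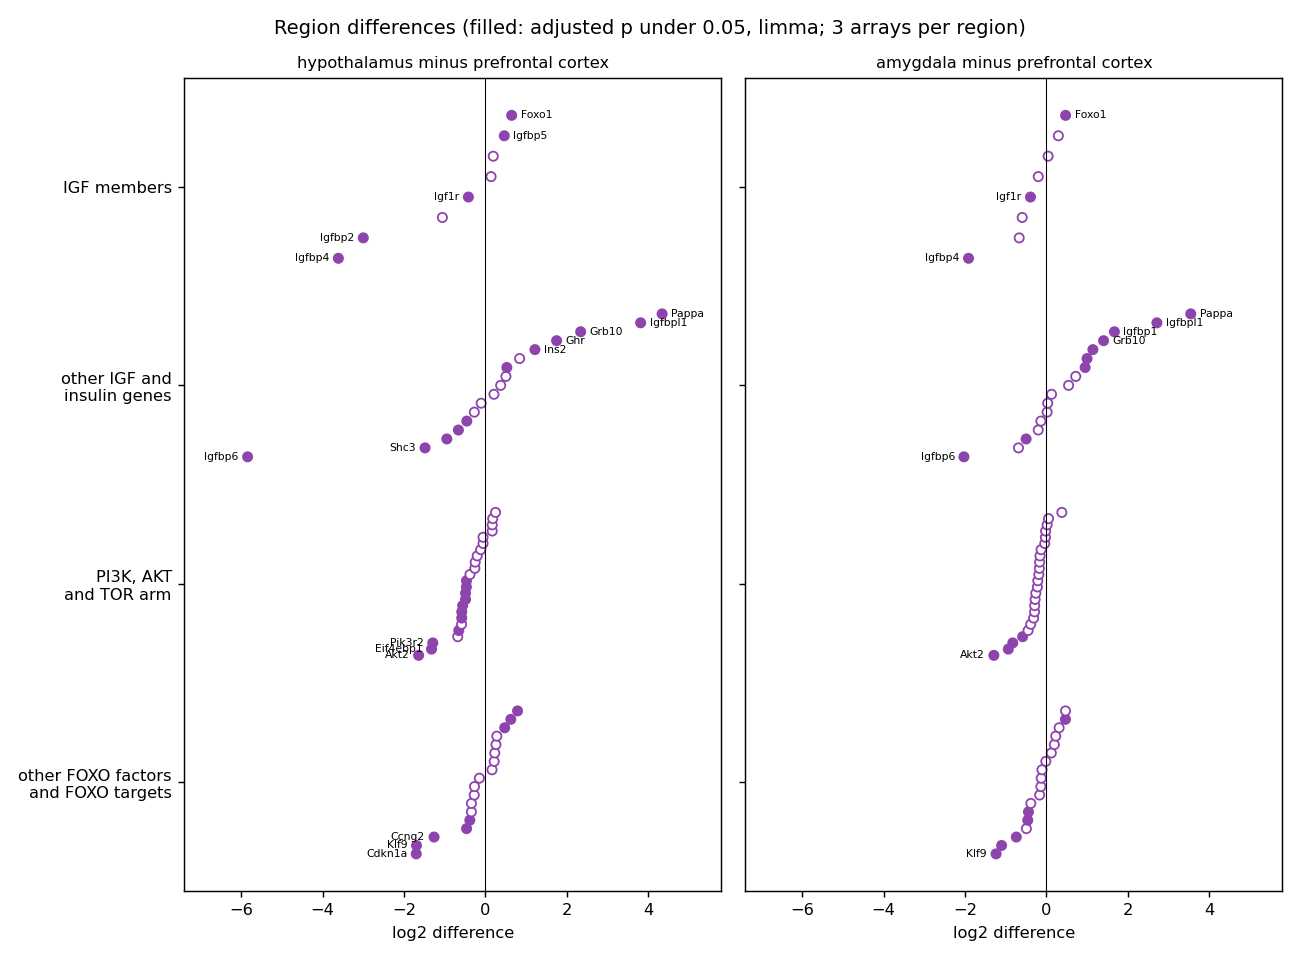
Log2 difference of each measured gene (points, ordered by size within a list) for hypothalamus minus prefrontal cortex (left) and amygdala minus prefrontal cortex (right), by list (vertical axis), filled where limma's adjusted p was under 0.05 with 3 arrays a region. In the left panel the PI3K, AKT and TOR genes hold 11 filled points below 0 and none above. Pappa, Igfbpl1 and Igfbp1, not well above background in the prefrontal cortex, are drawn at their fitted difference, which is no measured fold. The same holds on the left for Igfbp3, not well above background in the hypothalamus, and there Igfbp1 was well above background in neither region.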

How the data were processed

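RNA of 9 pools (3 regions, 3 diets, 4 mice each) was measured on 1-colour Agilent arrays. The intensities used are the processed signals deposited by the authors in scanner files, background-subtracted by Agilent Feature Extraction 9.5.1.1 with the protocol GE1-v5_95_Feb07, per the file headers, on a design built on mm7. The authors' deposited table holds ratios of each CR or RFR array to the AD array of its region, and was taken to log2 here. After 1 constant per array of 0.00495 to 0.131, between 99.6% and 99.7% of genes fell within 0.01 of the values computed here. The deposited table was used as an alternative. From the processed signals, log2 minus the array's 75th percentile was computed over 43379 spots, spots marked as outliers were left out and spots of a probe were averaged. Of 41174 probes, 22951 mapped through RefSeq accessions (names of GRCm38.p6) to 1 symbol, giving 16358 genes, and the probe with the highest mean stood for a gene. Genes well above background on at least 3 arrays, with at least 6 values, were tested (12622 genes).

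Tests were run with limma 3.58.1 in R 4.3.3 (lmFit and eBayes, region and diet as terms, 4 residual degrees of freedom, Benjamini-Hochberg adjustment over all genes tested, threshold 0.05), and were tested on simulated data. The 9 arrays limit the precision. Within a region, 2 arrays were compared without a test, counted at 1.5-fold and at 2-fold where both were well above background. A dim probe has no measured level. It was set at the higher of its own signal and the lowest signal of any probe well above background on its array. Folds taken this way are no strict lower bounds. Named genes outside the members are, per list and comparison, up to 4 with the largest called difference, and for likeness the 3 with the highest r. The members and lists were chosen with earlier results of these data known. The marker lists cover meninges and fibroblasts, choroid plexus, vessels, astrocytes, oligodendrocytes, microglia, neurons, ependyma, pituitary, blood, hypothalamus, cerebral cortex, amygdala and striatum. Alternatives were normexp (offset 50) on median signals, quantile normalization, the mean of all probes, other filters, trended variances, slide as a term, region as the only term and leaving out each pool or region.

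The labels carry no replicate numbers, and regions of a diet share a pool of mice, so diet is the block of the region comparisons.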

Additional observations from a re-analysis of the deposited data

Results flagged for a closer look

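The regions went opposite ways in 3 diet comparisons, each past 0.326 in size on both sides, a limit set from the largest spread between repeated spots. Each rests on 2 arrays per region, and the differences between regions were not tested. Igf1 had a CR minus RFR difference of -0.44 in the amygdala and of 0.48 in the hypothalamus, where both arrays lay on 1 slide. In the amygdala the Igf1 signals before scaling were 91.8 under CR and 90.1 under RFR, so that the difference there rests on the scaling. Igfbp2 had a CR minus AD difference of 0.76 in the hypothalamus and of -0.57 in the prefrontal cortex. Its CR minus RFR difference was -0.35 in the amygdala and 0.74 in the hypothalamus. The 12 meningeal genes had median differences of 0.86 and -0.61 for CR against AD in the hypothalamus and the prefrontal cortex, and of -0.23 and 0.81 for CR against RFR in the amygdala and the hypothalamus, and their part was not tested.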

How the results depend on the processing

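Igfbp2 and Igfbp4 remained called in hypothalamus against prefrontal cortex, and Igfbp4 in amygdala against prefrontal cortex, under every alternative in which they were measured. Of 5 members called for hypothalamus against prefrontal cortex, 3 to 5 remained when a pool was left out (3 without the RFR pool). Igfbp3 was a sixth call with normexp, quantile normalization, slide as a term or without the CR amygdala array (adjusted p = 0.00741 to 0.0279), although it was well above background on no hypothalamus array. It was also called for amygdala against prefrontal cortex with slide as a term and without that array (adjusted p = 0.0279 and 0.0367). For amygdala against hypothalamus the count of 2 stayed at 2 without any 1 pool and was 1 when genes had to be well above background on all 9 arrays, which removes Igfbp4. For amygdala against prefrontal cortex the count of 3 was 1 without the CR, the RFR or the AD pool, with 2 residual degrees of freedom in place of 4. The diet counts stayed at 0 of the members in all alternatives, while over all genes CR against AD gave 0 to 1231 calls, 1231 without the amygdala, RFR against AD 0 to 13 and CR against RFR 0 to 41. Members at 1.5-fold for RFR against AD in the amygdala were 2 after quantile normalization and 0 when probes were averaged, and for CR against AD in the prefrontal cortex 1 with the mean of all probes.

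Signs changed as follows. For Igf1, without the CR pool hypothalamus minus prefrontal cortex was -0.091 and amygdala minus hypothalamus 0.025. Amygdala minus prefrontal cortex was 0.28 with slide as a term and 0.048 without the CR amygdala array. CR minus AD, RFR minus AD and CR minus RFR were 0.52, 0.12 and 0.40 with slide as a term, and CR minus RFR was 0.092 without the amygdala, 0.022 without the prefrontal cortex and 0.16 without the CR amygdala array. Igf1r amygdala minus hypothalamus was -0.022 with normexp and -0.0144 without the AD pool. Igf2r amygdala minus prefrontal cortex was -0.069 with slide as a term, -0.11 without the CR pool and -0.10 without the CR amygdala array. Igfbp2 without the amygdala, the hypothalamus or the prefrontal cortex was 0.097, -0.31 or 0.35 for CR minus AD, -0.13, 0.00716 or 0.16 for RFR minus AD, and 0.22, -0.32 or 0.20 for CR minus RFR. With slide as a term Foxo1 CR minus AD was 0.093 and Igfbp4 CR minus RFR -0.041. Averaging all probes of a gene, Igfbpl1 amygdala minus hypothalamus was 0.47, CR minus AD in the amygdala was -0.37 for Pappa and -0.089 for Cdkn1b, and Klf15 CR minus AD was -0.0128 in the hypothalamus and -0.0146 in the prefrontal cortex. The causes were not tested. Diet contrasts of Igf1r, Igf2r and Igfbp5 changed sign in 16 of 108 alternatives, with 0 past the threshold. Those of Igfbp3, measured on 3 arrays, changed sign in 4 of 30. Its CR minus AD difference of 0.28 became -0.20 with normexp, -1.12 with slide as a term, -0.38 without the amygdala and -0.22 without the CR amygdala array.

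With region as the only term (no replicate block) the replicate block of diet was dropped, and 5, 2 and 3 members were called for the same comparisons, so the pairing by pool changed no call. The r of Igfbp2 with the meningeal genes ranged from 0.83 to 0.95. The deposited table, relative to AD, gives no region comparison. Leaving out the CR amygdala array and the alternatives for r were chosen after seeing the data. Probes near background (Igfbp3, Irs1, the second Igfbp5 probe) limit what can be measured.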
